A study of Mus musculus with 36 samples.

Results

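The genes that cut and rejoin DNA during V(D)J recombination were followed over a day in the mouse pre-B cell line B3. They were chosen by name, and 10 of 10 were found among the 12762 genes measured: Rag1, Rag2, Xrcc5, Xrcc6, Prkdc, Dclre1c, Lig4, Xrcc4, Nhej1 and Dntt. Ikaros cells carried a retroviral HA-Ikaros-ERt2 fusion with IRES-GFP, and control cells a vector with ERt2 alone. After sorting for GFP, each line was expanded as a population. Both lines received 0.5 uM 4-hydroxytamoxifen (4-OHT), which moves the fusion protein into the nucleus, and were collected 2, 6, 12, 18 or 24 h later. Cells at 0 h carry the same 4-OHT entry in the sample labels, whereas the methods describe them as untreated and obtained separately, so they were the 0 h group here and a comparison with 0 h also crosses occasions of collection. Each of the 12 groups held 3 libraries of stranded mRNA-seq, from culture batches 1, 2 and 4 at 0 h and batches 1, 3 and 4 afterwards. Endogenous and retroviral Ikaros cannot be told apart in the gene Ikzf1, and the methods state that Ikaros cells stop dividing in G1 after induction, so a gene's difference between the lines at late times also compares dividing with arrested cells.

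V(D)J recombination assembles antigen receptor genes in developing lymphocytes. The RAG1 and RAG2 proteins form the recombinase that cuts beside the gene segments, and the cell then repairs the break by classical non-homologous end joining. In that pathway the Ku heterodimer, encoded by Xrcc5 (Ku80) and Xrcc6 (Ku70), holds the DNA ends and recruits the kinase DNA-PKcs (Prkdc). Artemis, the product of Dclre1c, opens the hairpins left by the recombinase, DNA ligase IV (Lig4) with XRCC4 (Xrcc4) and XLF (Nhej1) seals the joint, and terminal transferase (Dntt) can add untemplated nucleotides. In pre-B cells the recombinase is re-expressed when large cycling cells become small resting cells and begin to rearrange the immunoglobulin light chain genes. Ikaros is a zinc finger transcription factor known for a role at that step.

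The start regions of 6 windows are shown because they belong to the recombinase, to the ligase and to the Ku subunits, the genes on which the results turn. They run from 250 bases before to 50 bases after each annotated start in RefSeq on GRCm38.p6. Capitals mark the core of the Ikaros motif, GGGAA or its reverse complement TTCCC. They were printed 5′ to 3′ on the strand of the gene: Rag1 at chr2:101649483-101649782 on the minus strand, Rag2 at chr2:101624462-101624761 on the plus strand, Lig4 at chr8:9976262-9976561 and at chr8:9977631-9977930 on the minus strand, Xrcc5 at chr1:72307171-72307470 and Xrcc6 at chr15:82016119-82016418 on the plus strand.
Rag1: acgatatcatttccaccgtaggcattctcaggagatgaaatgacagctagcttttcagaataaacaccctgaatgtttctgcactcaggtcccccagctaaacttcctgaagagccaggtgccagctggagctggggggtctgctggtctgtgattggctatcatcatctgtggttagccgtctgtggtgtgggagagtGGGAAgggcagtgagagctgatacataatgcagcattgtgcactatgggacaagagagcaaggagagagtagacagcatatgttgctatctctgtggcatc
Rag2: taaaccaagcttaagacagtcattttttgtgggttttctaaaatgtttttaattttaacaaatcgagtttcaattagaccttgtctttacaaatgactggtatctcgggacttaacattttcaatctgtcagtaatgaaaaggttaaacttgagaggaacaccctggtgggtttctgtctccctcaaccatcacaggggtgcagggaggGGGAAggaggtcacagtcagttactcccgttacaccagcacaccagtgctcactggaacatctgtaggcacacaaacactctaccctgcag
Lig4, inner start: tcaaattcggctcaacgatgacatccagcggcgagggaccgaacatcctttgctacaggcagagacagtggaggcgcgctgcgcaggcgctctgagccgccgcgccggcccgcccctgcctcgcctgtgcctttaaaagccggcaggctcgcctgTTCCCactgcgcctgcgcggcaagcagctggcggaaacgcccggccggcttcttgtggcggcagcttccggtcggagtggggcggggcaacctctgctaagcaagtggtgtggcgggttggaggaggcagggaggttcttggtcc
Lig4, upstream start: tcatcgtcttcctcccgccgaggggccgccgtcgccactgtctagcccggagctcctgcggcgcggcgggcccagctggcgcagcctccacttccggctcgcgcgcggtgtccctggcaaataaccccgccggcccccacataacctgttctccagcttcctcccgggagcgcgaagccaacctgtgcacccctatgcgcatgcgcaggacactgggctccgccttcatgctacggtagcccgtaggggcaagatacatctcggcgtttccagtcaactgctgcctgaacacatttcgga
Xrcc5: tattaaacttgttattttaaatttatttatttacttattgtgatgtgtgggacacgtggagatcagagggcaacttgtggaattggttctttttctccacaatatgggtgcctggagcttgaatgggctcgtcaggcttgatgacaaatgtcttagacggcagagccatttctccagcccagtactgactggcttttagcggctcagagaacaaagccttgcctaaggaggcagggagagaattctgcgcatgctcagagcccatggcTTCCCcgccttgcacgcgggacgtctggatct
Xrcc6: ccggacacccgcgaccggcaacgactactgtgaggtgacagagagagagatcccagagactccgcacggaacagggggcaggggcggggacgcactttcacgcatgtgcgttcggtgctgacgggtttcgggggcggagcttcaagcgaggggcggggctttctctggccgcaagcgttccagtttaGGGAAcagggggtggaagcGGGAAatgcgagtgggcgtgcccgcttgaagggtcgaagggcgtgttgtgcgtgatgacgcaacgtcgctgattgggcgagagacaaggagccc

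RefSeq start windows were found for 9 of the 10 genes, 10 windows in all, since Lig4 has 2. The Ikaros core lay in 8 of the 10 windows, against 62.7% of 32851 start windows of the same length over all genes. In Rag1 it began 51 bases before the start, in Rag2 41 bases before it, and in the upstream Lig4 window it was not found. Xrcc6 held 2 copies and Xrcc5 held 1. The E-box CAGNTG (both strands) lay in 5 of 10 windows against 51.4% of all, the CCAAT box (both strands) in 4 of 10 against 37.4%, and the forkhead letters GTAAACA (both strands) in 0 of 10 against 3.65%. In these windows no match of one motif overlapped a match of another, and a match is a description of the sequence only. Rag2, which rose in the Ikaros cells, and Xrcc5, which fell, each held 1 core.

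Over the day the genes of the recombinase and of the ligase came to differ most between the lines. At 24 h, 6 of the 10 genes were higher in Ikaros than in control cells (Rag1, Lig4, Rag2, Xrcc6, Dclre1c and Xrcc4) and 2 were lower (Xrcc5 and Prkdc), while Nhej1 and Dntt did not pass the test. The test was limma's moderated test over all genes, with a gene called at a Benjamini-Hochberg adjusted p under 0.05. Of all 12762 genes, 31.0% were called higher and 31.9% lower at that time, so a call by itself was common at that time. The median difference (Ikaros minus control) of the 10 genes was 1.20 on the log2 scale, beside -0.01 over all genes. In the heat map of differences the genes enter at different times.

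**Figure D1:**
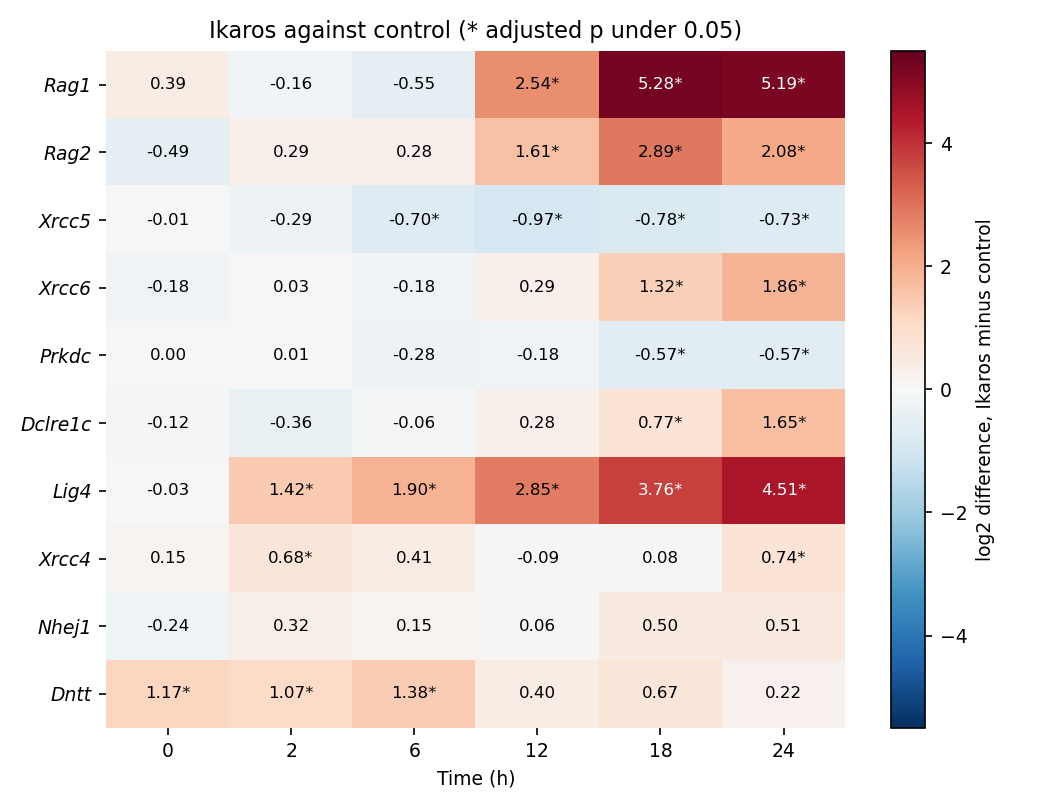
Heat map of the log2 difference, Ikaros minus control, for the 10 genes (rows) at 6 times in hours (columns), from 3 libraries per group; red is higher in Ikaros cells, blue lower, and an asterisk marks a limma adjusted p under 0.05. Lig4 is called from 2 h, Xrcc5 from 6 h, Rag1 and Rag2 from 12 h and Xrcc6, Dclre1c and Prkdc from 18 h, with 5.28 for Rag1 at 18 h the highest value.

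The calls accumulated with time, as they did over all genes. At 0 h 1 of the 10 genes was higher and 0 lower, with 4.61% of all genes called higher and 3.72% called lower. With the culture batch as a block, 2 genes were called at 0 h, Dntt and Rag2. At 2 h 3 genes were higher and 0 lower, against 9.18% and 9.88% of all genes. At 6 h the numbers were 2 and 1, against 18.1% higher and 19.2% lower. At 12 h they were 3 and 1, against 23.0% and 22.8%. By 18 h they had reached 5 and 2, against 29.0% and 29.2%. The median of the 10 genes stood at 0.28 and 0.72 for 12 and 18 h, beside -0.01 and -0.02 over all genes.

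Rag1, the catalytic subunit of the recombinase, rose late and steeply. In Ikaros cells its log2 expression at 6 h was 10.25, 9.86 and 9.36 in batches 1, 3 and 4. It then read 12.61, 12.02 and 12.02 at 12 h, 15.26, 14.55 and 14.84 at 18 h, and by 24 h 15.84, 14.93 and 14.9. Control cells gave 10.28, 10.6 and 10.25 at 6 h and 9.91, 9.72 and 9.41 at 12 h, then 9.98, 9.59 and 9.22 (18 h) and 10.05, 10.02 and 10.02 (24 h). The groups overlapped up to 6 h, and from 12 h every Ikaros library was above every control library. The 12 h difference was 2.54 (5.81-fold, adjusted p = 6.84e-08). By 18 h it had reached 5.28 (39.0-fold, adjusted p = 3.35e-14), and the 24 h value was 5.19 (36.5-fold, adjusted p = 2.52e-14), each with a standard error of 0.29. The difference at 24 h was 5.79, 4.90 and 4.88 within batches 1, 3 and 4. Before that rise came a fall: Ikaros cells held 11.71, 11.67 and 10.75 at 0 h, and 10.01, 10.31 and 9.52 at 2 h. Their decline from 0 h was -1.43 at 2 h (adjusted p = 0.00111) and -1.56 at 6 h (adjusted p = 0.000172). Control cells also lay lower than at 0 h, by -0.89 at 2 h and -0.62 at 6 h, without a call, and the difference between the lines did not pass the test at either time. The 2 h call in Ikaros cells was lost with the compared groups alone (adjusted p = 0.0585) and without replicate 2 (-1.47, adjusted p = 0.0556). At 12 h Ikaros cells were called higher than at their own 0 h. That call was lost with the compared groups alone (0.84, adjusted p = 0.0827), without replicate 2 (1.08, adjusted p = 0.0647) and without replicate 3 (0.62, adjusted p = 0.138).

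Rag2, the partner of RAG1 in the recombinase, rose at the same time but less, with its highest mean at 18 h. Ikaros cells held 10.57, 10.17 and 10.39 at 6 h and 11.44, 11.02 and 11.54 at 12 h, then 12.4, 12.13 and 12.23 (18 h) and 12.08, 11.81 and 11.87 (24 h). Control cells held 9.94, 9.39 and 9.85 at 12 h, then 9.68, 9.35 and 9.05 (18 h) and 9.95, 9.75 and 9.8 (24 h). From 12 h the groups did not overlap. They were apart at 2 h too, with 10.48, 10.32 and 10.48 against 10.21, 9.89 and 10.31, where the difference of 0.29 did not pass the test (adjusted p = 0.242), and overlapped at 6 h. Its 12 h difference was 1.61 (3.05-fold, adjusted p = 8.68e-09). It peaked among the times measured with 2.89 at 18 h (7.43-fold, adjusted p = 5.23e-14), and 2.08 remained by 24 h (4.24-fold, adjusted p = 2.03e-11), with a standard error of 0.16. Between 18 and 24 h the difference shrank by 0.81 on the log2 scale, with Ikaros cells lower and control cells higher in the mean. That step had an adjusted p of 0.0587, and of 0.018 with the culture batch as a block. The rise of Rag1 exceeded that of Rag2 within every batch at these times: by 1.19, 0.68 and 0.92 at 12 h, by 2.56, 2.18 and 2.44 at 18 h and by 3.66, 2.84 and 2.82 at 24 h.

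At 0 h every Rag2 value of the Ikaros line lay below those of the control line. It was 10.1, 10.25 and 10.0 at 0 h in Ikaros cells and 10.63, 10.69 and 10.51 in control cells. The difference of -0.49 had an adjusted p of 0.0643, and of 0.0191 with the culture batch as a block, 0.0356 with the compared groups alone and 0.046 after quantile normalization. Control cells lost Rag2 over time in the comparison with their own 0 h, by -0.88 at 12 h (adjusted p = 0.0409), -1.25 at 18 h (adjusted p = 0.000573) and -0.78 at 24 h (adjusted p = 0.0314). Rag1 in control cells was also called lower at 18 h, by -1.40 (adjusted p = 0.0336). Leaving out replicates ended these control calls: Rag2 at 12 h and 24 h and Rag1 at 18 h were each lost without replicate 1, without replicate 2 and without replicate 3, and Rag2 at 18 h without replicate 2 and without replicate 3. All of them were also lost with the compared groups alone, where 0 of all genes were called at 12, 18 and 24 h. Over all genes the main fit called 7, 61 and 60 at these times. The numbers were 1, 2 and 0 without replicate 1, 0, 0 and 0 without replicate 2, and 8, 10 and 22 without replicate 3. Where nearly all calls were lost, the loss is not particular to Rag1 or Rag2. Since the 0 h cells were collected separately, time and occasion cannot be told apart in the control values of Rag1 and Rag2.

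**Figure D2:**
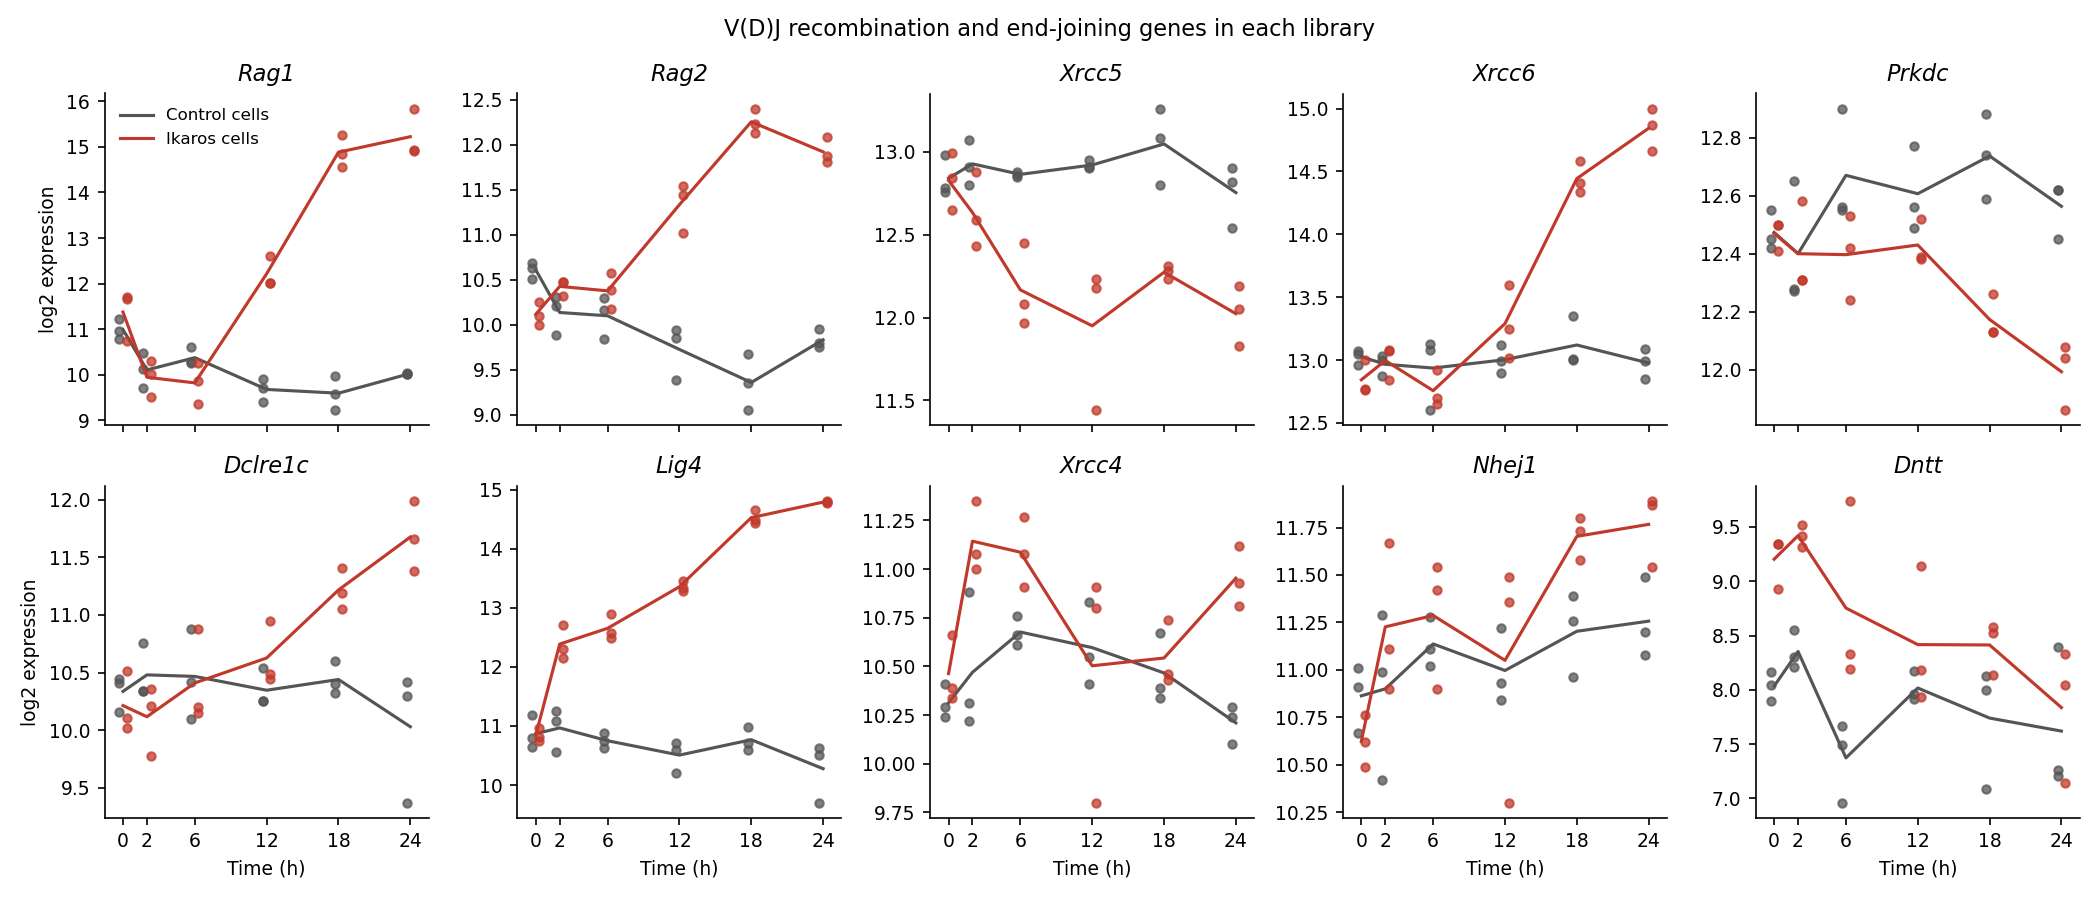
Log2 expression against time in hours for the 10 genes, a panel each with its own vertical axis; points are the 3 libraries of each group (grey control, red Ikaros) and lines join the group means. Rag1 is apart between the lines from 12 h and Lig4 from 2 h, Rag2 is lower in Ikaros cells at 0 h and higher at 2 h and again from 12 h, and the Ku genes Xrcc5 and Xrcc6 move in opposite directions in Ikaros cells.

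The subunits of Ku, which bind DNA ends as a dimer, moved in opposite directions. Xrcc5 (Ku80) fell first. At 6 h it was 12.45, 11.97 and 12.08 in Ikaros cells and 12.85, 12.88 and 12.86 in control cells. At 24 h it was 11.83, 12.05 and 12.19 against 12.82, 12.9 and 12.54. The groups were apart at each time from 6 h. Xrcc5 differed by -0.70 at 6 h (adjusted p = 0.0017) and by -0.97 at 12 h (adjusted p = 2.71e-05). The later values were -0.78 (18 h, adjusted p = 0.000253) and -0.73 (24 h, adjusted p = 0.000422), with a standard error of 0.17. The 12 h value leaned on the batch 4 Ikaros library, which stood at 11.44 beside 12.18 and 12.23, and within batches the 12 h difference was -0.76, -0.68 and -1.46. The 6 h call was lost without replicate 2, where the difference was -0.59 (adjusted p = 0.0883).

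Xrcc6 (Ku70) rose later. At 12 h its Ikaros libraries read 13.6, 13.25 and 13.02 and its control libraries 12.9, 13.12 and 12.99, which overlapped. At 18 h the Ikaros libraries read 14.34, 14.41 and 14.58 and the control libraries 13.01, 13.35 and 13.0. At 24 h they read 14.87, 14.66 and 15.0 against 12.99, 13.09 and 12.85. No Ikaros library fell into the control range at the last 2 times. Xrcc6 was higher by 1.32 at 18 h (2.50-fold, adjusted p = 8.86e-09) and by 1.86 at 24 h (3.64-fold, adjusted p = 9.21e-12), with a standard error of 0.14. Within batches 1, 3 and 4 the Xrcc6 difference exceeded that of Xrcc5 by 2.87, 2.42 and 2.50 at 24 h. Without the batch 4 Ikaros library the 12 h difference of Xrcc6 was 0.42 and passed the test (adjusted p = 0.0258), against 0.29 with it (adjusted p = 0.103).

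The kinase and the nuclease that act next also parted. Prkdc, which encodes the DNA-PK catalytic subunit, was 12.26, 12.13 and 12.13 in Ikaros cells at 18 h and 12.59, 12.74 and 12.88 in control cells. At 24 h it was 12.08, 12.04 and 11.86 against 12.62, 12.45 and 12.62, again without overlap. It was lower by -0.57 at 18 h (adjusted p = 0.000132) and by -0.57 at 24 h (adjusted p = 9.96e-05), with a standard error of 0.11. At 6 h Prkdc was -0.28 apart with an adjusted p of 0.059, or 0.038 with the culture batch as a block.

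Dclre1c, the gene of the Artemis nuclease, rose at the times when Prkdc was lower. Ikaros cells held 11.41, 11.05 and 11.19 at 18 h and 11.66, 11.99 and 11.38 at 24 h. Control cells held 10.4, 10.6 and 10.32 at 18 h and 10.3, 10.42 and 9.37 at 24 h, so batch 4 was low in the last control group. The Ikaros libraries were above the control libraries at both times. The difference was 0.77 at 18 h (adjusted p = 0.00905) and 1.65 at 24 h (3.14-fold, adjusted p = 1.75e-06), with a standard error of 0.25. At 24 h it was 1.36, 1.58 and 2.01 within batches 1, 3 and 4. The 18 h call was lost without replicate 1, where the difference was 0.65.

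Lig4, which encodes the ligase that seals the joint, was called higher in Ikaros cells at every time after 0 h. Its Ikaros libraries began at 10.82, 10.74 and 10.97 (0 h) and stood at 12.71, 12.3 and 12.15 by 2 h, at 13.33, 13.29 and 13.45 by 12 h and at 14.79, 14.77 and 14.81 by 24 h. Its control libraries began at 10.79, 10.64 and 11.18 (0 h) and stood at 11.25, 11.09 and 10.56 by 2 h, at 10.72, 10.59 and 10.21 by 12 h and at 10.62, 10.51 and 9.7 by 24 h. The lines overlapped at 0 h and at no later time. The difference passed the test at each time from 2 to 24 h, with 1.90 at 6 h (3.74-fold, adjusted p = 3.32e-08), 2.85 at 12 h (7.22-fold, adjusted p = 9.59e-12) and 3.76 at 18 h (13.5-fold, adjusted p = 1.64e-14). The standard error was 0.20. At 24 h the within-batch differences of Lig4 were 4.16, 4.26 and 5.11, the last beside the low control library of batch 4.

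Xrcc4, the scaffold that binds ligase IV, did not follow Lig4. It was 11.08, 11.0 and 11.35 in Ikaros cells at 2 h and 10.31, 10.22 and 10.88 in control cells. At 12 h it was 10.91, 10.8 and 9.8 against 10.55, 10.41 and 10.83, and at 24 h 10.81, 11.12 and 10.93 against 10.1, 10.29 and 10.24. At 6 h it was 10.91, 11.08 and 11.27 against 10.76, 10.66 and 10.61. The lines were apart at 2, 6 and 24 h and overlapped at 0, 12 and 18 h. Xrcc4 was higher by 0.68 at 2 h (adjusted p = 0.0177) and by 0.74 at 24 h (1.67-fold, adjusted p = 0.00223), with a standard error of 0.20. The 6 h difference of 0.41 had an adjusted p of 0.107, which became 0.041 with the GC and length trend removed and 0.0295 without the batch 4 Ikaros library of 12 h. At 12 h the difference was -0.09, but 0.26 without the batch 4 Ikaros library (adjusted p = 0.229) and 0.37 without replicate 3 (adjusted p = 0.0375), so its direction there depends on that library. The 2 h call was lost with the compared groups alone, without replicate 1 (0.63) and without replicate 2 (0.62), and the 24 h call without replicate 2 (0.70, adjusted p = 0.0513). Over all genes the main fit called 2432 at 2 h. The compared groups alone called 860, and the fits without replicates 1 and 2 called 962 and 804.

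Nhej1, which encodes the joining factor XLF, was called between the lines at none of the 6 times. At 24 h it was 11.89, 11.54 and 11.87 in Ikaros cells and 11.2, 11.08 and 11.49 in control cells, without overlap. Its difference of 0.51 had a standard error of 0.25 and an adjusted p of 0.0724. It passed the test with the compared groups alone (adjusted p = 0.0307), with the GC and length trend removed (0.64, adjusted p = 0.0247), without replicate 3 (0.58, adjusted p = 0.0354) and without the batch 4 Ikaros library of 12 h (adjusted p = 0.029). Those 4 alternatives also called Nhej1 at 18 h, with adjusted p from 0.03 to 0.038. In Ikaros cells against their own 0 h, Nhej1 was higher by 1.08 at 18 h (adjusted p = 0.000548) and by 1.14 at 24 h (adjusted p = 0.000241). Control cells moved the same way by 0.34 and 0.39 without a call.

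Dntt, the gene of terminal transferase, went the other way. Its mean lay above that of 16.6% of all genes, so it was among the weakly expressed ones. At 0 h it was 8.93, 9.34 and 9.34 in Ikaros cells and 8.16, 7.9 and 8.04 in control cells, so the lines were apart before induction. At 24 h it was 8.04, 7.14 and 8.33 against 7.26, 7.21 and 8.39, which overlapped. Ikaros cells held more Dntt by 1.17 at 0 h (adjusted p = 0.0474), 1.07 at 2 h (adjusted p = 0.0433) and, in the 6 h samples, 1.38 (adjusted p = 0.00456). The 24 h value was 0.22 (adjusted p = 0.626), and the standard error 0.37. The 18 h difference of 0.67 had an adjusted p of 0.12, or 0.0427 with the culture batch as a block. Ikaros cells were lower at 24 h than at their own 0 h by -1.37 (adjusted p = 0.00234). The 0 h and 2 h calls were lost without replicate 1 and without replicate 2, the 0 h call also after quantile normalization (adjusted p = 0.0531) and with trended moderation (adjusted p = 0.0522), the 6 h call without replicate 1 and with the compared groups alone, and the fall from 0 h to 24 h without replicate 2 (-0.95, adjusted p = 0.0896).

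The moderated F test asked whether the difference between the lines changed at any time from its 0 h value. It called 7 of the 10 genes, against 59.8% of all genes: Rag1, Rag2, Lig4, Xrcc6, Xrcc5, Prkdc and Dclre1c. Xrcc4, Nhej1 and Dntt were not called. Prkdc and Xrcc5 were lost without replicate 1 and without replicate 2, which left 5 genes. Over all genes the F test called 7626 in the main fit, and 4821 and 4064 in those fits. Xrcc4 was gained, for 8 genes, under the filter on low means, without replicate 3 and without the batch 4 Ikaros library of 12 h. Time by time, the change of the difference from 0 h was called for 1 gene at 2 h (3.1% of all genes), 3 at 6 h (15.9%), and 4 at 12 h (29.7%). It was called for 7 genes at 18 h (43.0%) and for 7 by 24 h (48.4%). At 2 h that gene was Lig4, and the block added Rag2, whose change of 0.78 had an adjusted p of 0.0647 without the block and 0.0163 with it. Without replicate 1 or without replicate 2 the 2 h call of Lig4 was lost, with changes of 1.45 and 1.61. Over all genes the 2 h calls went from 396 to 54 and 55 in those fits. The 12 h call of Xrcc5 was lost without replicate 2, where the calls over all genes went from 3795 to 1548. At 18 h Dclre1c and Xrcc5 were lost without replicate 1 or 2, Prkdc without replicate 2 and Dclre1c with the GC and length trend removed. At 6 h Rag2 was lost without any 1 of the 3 replicates and Xrcc5 without replicate 1 or 2. Xrcc5 at 6 h was also lost with the compared groups alone (-0.68, adjusted p = 0.0509) and with the GC and length trend removed (-0.66, adjusted p = 0.1). At 24 h Xrcc5 was lost without replicate 1 or 2 and Prkdc without replicate 1. For Dntt the change at 24 h was -0.95, with an adjusted p of 0.137 and of 0.0495 with the block. All of these changes share the 0 h libraries. Leaving out replicate 1 or replicate 2 lowered the number of all genes called by more than 1.5 times in 17 and 22 of 26 comparisons.

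Against their own 0 h, Ikaros cells changed in 3 of the 10 genes at 2 h (19.2% of all genes called), 5 at 6 h (32.8%), and 5 at 12 h (46.1%). They changed in 8 genes by 18 h (54.6%) and in 10 by 24 h (60.6%). At 24 h 7 of them were higher and 3 lower, the latter being Xrcc5, Prkdc and Dntt. Rag2 in Ikaros cells was called with the block alone at 2 h (0.44, adjusted p = 0.0288) and at 6 h (0.39, adjusted p = 0.0408). Prkdc at 18 h was -0.30 (adjusted p = 0.0288) without the block and -0.25 (adjusted p = 0.0692) with it. In control cells limma called 0 genes at 2 h (0.047% of all genes), 0 at 6 h (5.1%), and 1 at 12 h (0.0549%). It called 2 genes at 18 h (0.478%) and 1 by 24 h (0.47%). At an unadjusted p under 0.05, 2 genes passed in control cells at 2 h and 2 at 6 h, Rag1 and Rag2 at both times. The shares above are for adjusted p, and no share of all genes is given at the unadjusted threshold.

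The steps between neighbouring times place the rises. From 2 to 6 h limma called a change of the difference in 0 of the 10 genes, against 5.96% of all genes. At an unadjusted p under 0.05 the number was also 0, and no share of all genes is given at that threshold. From 6 to 12 h it called Rag1 (3.09, adjusted p = 2.68e-05), Rag2 (1.33, adjusted p = 0.000463) and Lig4 (0.95, adjusted p = 0.0237), 3 genes against 16.0%. From 12 to 18 h it called Rag1 (2.75), Rag2 (1.29), Xrcc6 (1.03) and Lig4 (0.91), 4 genes against 11.7%. Without replicate 2 the step to 18 h lost Xrcc6 and Lig4, without replicate 1 Lig4 and without replicate 3 Xrcc6. Over all genes that step was called in 1497, and in 285, 143 and 1275 without replicates 1, 2 and 3. Lig4 was also lost from the step to 12 h without replicate 1, without replicate 2 and without the batch 4 Ikaros library. From 18 to 24 h limma called 0 genes against 2.63%, and 1, Rag2, with the block. There, 5 genes had an unadjusted p under 0.05 (Dclre1c, Lig4, Rag2, Xrcc4 and Xrcc6), again without a share of all genes to set beside them. Rag1 stood at -0.09 in that step.

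Several of the 10 genes share ground with other genes, so their values were set beside those of their neighbours. The libraries were stranded, but whether fragments were counted by strand is not given in the sources used here. Where exons overlap on opposite strands, reads of the genes cannot be told apart without it. In the GENCODE annotation on GRCm38, Xrcc6 (chr15:81987835-82040085, plus strand) shares 344 of its 4476 exonic bases with Desi1 on the other strand, and Desi1, a gene of a deSUMOylating peptidase, rose with it. Its excess in Ikaros cells was 0.36 at 2 h (adjusted p = 0.0087) and 1.06 at 12 h (adjusted p = 1.05e-09), and the 24 h value was 2.58 (5.96-fold, adjusted p = 1.23e-17). Desi1 therefore passed the test at 2, 6 and 12 h, when Xrcc6 did not. Its part in the Xrcc6 values was not tested.

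Dclre1c (chr2:3424131-3464130, plus strand) shares 357 of 9316 exonic bases with Suv39h2, a histone methyltransferase gene on the opposite strand, which moved the other way, by -1.61 at 24 h (adjusted p = 1.63e-10). Xrcc4 (chr13:89774027-90089608, minus strand) shares 112 of 4213 with Tmem167, which was -1.03 at 24 h (adjusted p = 5.76e-05). B230118H07Rik overlaps both convergent Rag genes, with 80 exonic bases shared with Rag1 and 208 with Rag2. It was 3.08 higher at 24 h (8.45-fold, adjusted p = 8.92e-05), from a low level, with means of 8.11 in Ikaros and 5.03 in control cells. The shared bases make up 1.21% of the exonic bases of Rag1 and 6.07% of those of Rag2. This gene lies on the same strand as Rag1, where counting by strand would not separate their reads.

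Genes further along the same chromosomes differed in when and how far they changed. Rag1 (chr2:101638282-101649501, minus strand) and Rag2 (chr2:101624718-101632529, plus strand) end 5752 bases apart. Beyond Rag1, after 28927 bases, lies Traf6, an adaptor of receptor signalling to NF-kB, which rose by 0.75 at 12 h (adjusted p = 0.00337) and by 1.86 at 24 h (3.64-fold, adjusted p = 8.01e-09). Lig4 (chr8:9969049-9977686, minus strand) starts 20 bases from Abhd13 on the other strand. Abhd13 was 0.33 apart at 2 h (adjusted p = 0.221) and 0.14 at 12 h (adjusted p = 0.544), when Lig4 was already called, and it was higher by 0.95 at 24 h (1.94-fold, adjusted p = 3.60e-05).

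The reverse held at Dntt (chr19:41029275-41059525, plus strand). Its neighbour Blnk, the gene of a pre-B receptor signalling adaptor, lies 34739 bases away and is read from the other strand. Blnk was higher by 2.34 at 12 h (adjusted p = 1.23e-10) and by 4.14 at 24 h (17.6-fold, adjusted p = 4.19e-16), while Dntt at 24 h was 0.22. Prkdc (chr16:15637866-15842235, plus strand) starts 465 bases from Mcm4, a replicative helicase gene, which was 0.32 at 18 h (adjusted p = 0.278) and -0.59 at 24 h (adjusted p = 0.0432). On the other side of Prkdc, Mzt2 was called lower at 6, 18 and 24 h, with -0.44 at 18 h (adjusted p = 0.032) and -0.49 at 24 h (adjusted p = 0.0155). Xrcc5 lies at chr1:72307421-72394952 on the plus strand and Nhej1 at chr1:74967139-75125200 on the minus strand. Of their neighbours, March4 differed by -1.21 at 24 h (adjusted p = 0.0401), Ihh by 1.17 (adjusted p = 0.00181) and Slc23a3 by 0.19 (adjusted p = 0.696). Beside Xrcc4, Vcan differed by 0.01 at 24 h (adjusted p = 0.984) and Atp6ap1l by 1.08 (adjusted p = 0.00177). Snu13, beside Xrcc6, was -0.44 at 12 h (adjusted p = 0.00423) and 0.25 at 24 h (adjusted p = 0.0799).

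**Figure D3:**
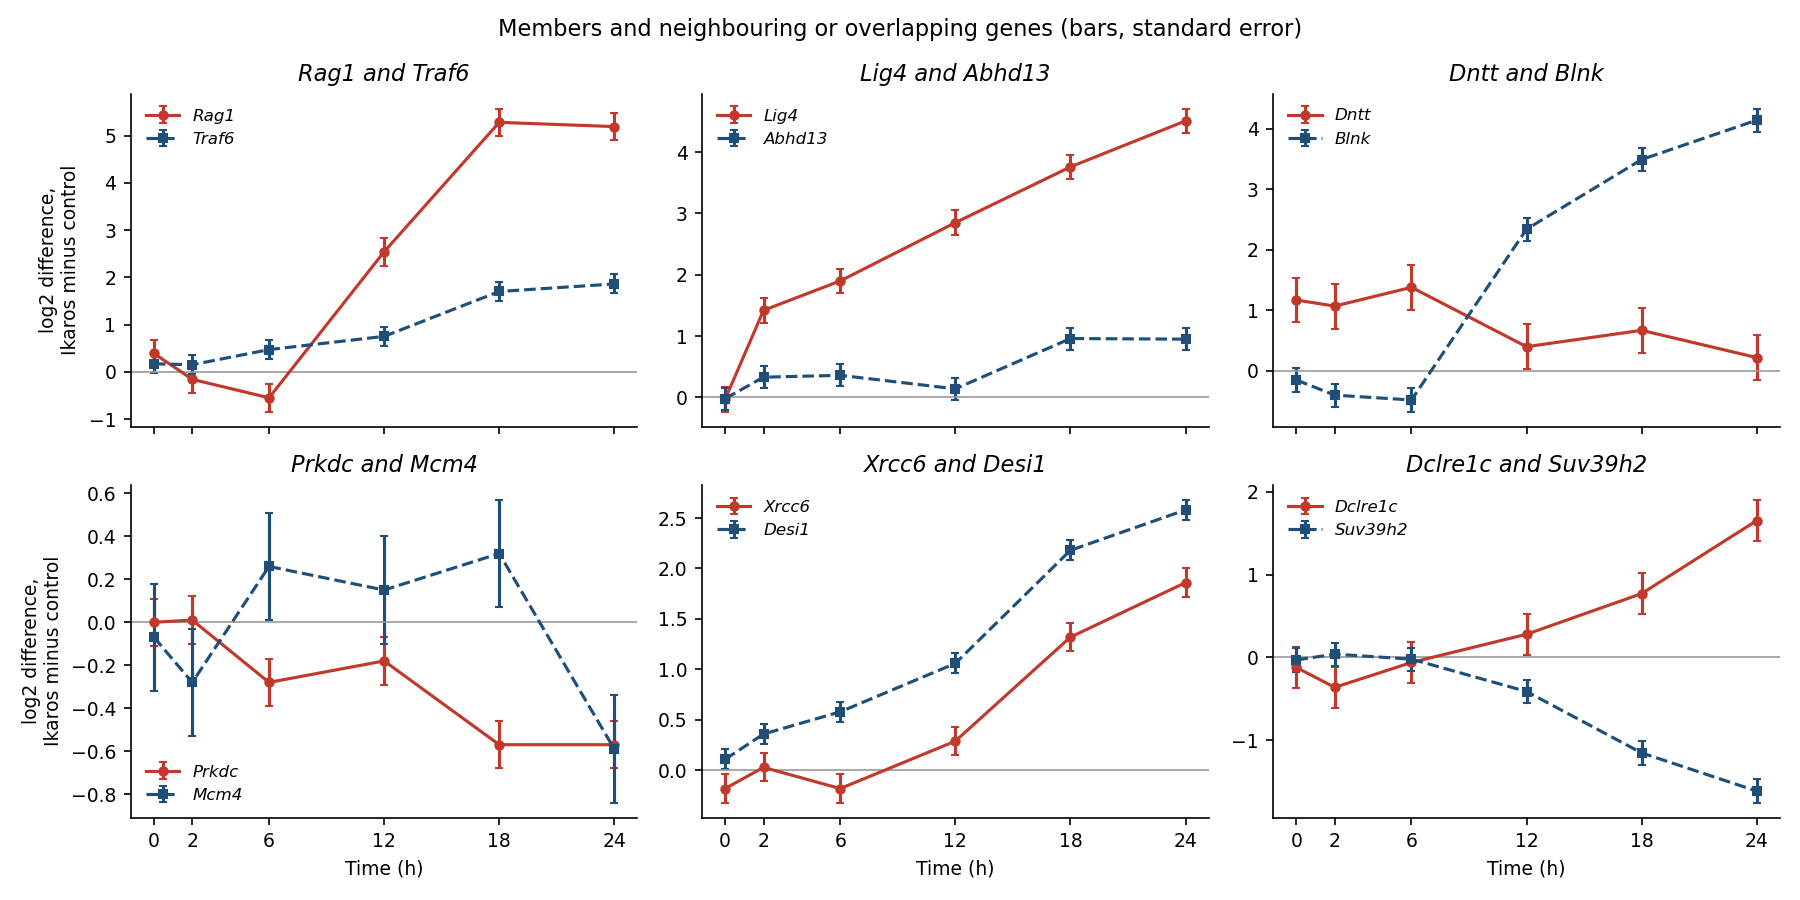
Log2 difference, Ikaros minus control, against time in hours for 6 of the genes (red circles, solid) and a neighbouring or overlapping gene (blue squares, dashed), with bars for the standard error of the fit over 3 libraries per group. Blnk reaches 4.14 at 24 h beside 0.22 for Dntt, Abhd13 stays at 0.95 beside Lig4, and Desi1 lies above Xrcc6 at every time.

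The partners of the pathway were read from lists of related genes. Beside their counts at 24 h stand the shares over all genes, 31.0% higher and 31.9% lower. Of 19 other end-joining and end-processing genes measured, 6 were higher and 8 lower, shares near those of all genes, with a median of -0.06 beside -0.01 over all genes. Rad50, of the MRN complex, was higher by 0.94 (adjusted p = 5.10e-06). Nbn, another MRN subunit, was lower by -2.55 (5.84-fold, adjusted p = 8.15e-14) and the exonuclease gene Exo1 by -1.66 (adjusted p = 8.54e-14). The polymerase genes of classical joining took different courses. Poll was higher by 0.36 at 24 h (adjusted p = 0.00311). Polm was lower at 0 h by -1.16 (adjusted p = 3.04e-07), with means of 10.62 in Ikaros and 11.78 in control cells, and reached 12.42 against 12.18 at 24 h. Its 24 h difference was 0.24 (adjusted p = 0.113), a change of 1.40 from 0 h (adjusted p = 4.39e-07). Polq, of the alternative joining route, was -1.19 (adjusted p = 5.86e-07), Parp1 0.64 (adjusted p = 0.00186) and Lig3 -0.74 (adjusted p = 2.01e-04).

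Of 11 genes of the double-strand break response, 1 was higher and 7 were lower at 24 h, with a median of -0.42. For the change from 0 h to 24 h, 0 were called higher and 4 lower, beside 48.4% of all genes called in either direction. Mdc1, a mediator at broken chromatin, was the higher of them at 0.95 (adjusted p = 5.28e-04). Rnf168, a ubiquitin ligase, was -1.23 (adjusted p = 2.20e-06) and Trp53, the p53 gene, -0.93 (adjusted p = 7.31e-09). The kinase gene Atm was 0.07 apart (adjusted p = 0.815). Of 7 cofactors and turnover genes of the recombinase, 1 was higher and 4 were lower, with a median of -0.50. The DNA-bending proteins that assist cutting parted, with Hmgb2 at 0.70 (adjusted p = 0.00821) and Hmgb1 at -0.55 (adjusted p = 0.00528). Vprbp, whose protein binds RAG1 in a ubiquitin ligase, was -1.19 (adjusted p = 3.42e-10). Ccna2 and Cdk2, the cyclin A and kinase pair linked to turnover of RAG2, were -0.50 (adjusted p = 4.34e-04) and -0.52 (adjusted p = 0.00155). At 0 h Cdk2 had means of 14.26 in Ikaros and 14.53 in control cells, and 0 genes of the list were called. Skp2 and Ddb1, of the same list, were not called at 24 h. Skp2 had means of 13.09 in Ikaros and 12.88 in control cells, and Ddb1 of 16.61 and 16.76.

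Of 21 transcription factors linked to the Rag locus or to B cell progenitors, 20 were measured, and 14 were higher and 5 lower at 24 h, with a median of 1.07. At 0 h 4 of them were already called higher and 2 lower. Ikzf1 itself is among them and reads the retroviral fusion too. Ets1, an Ets family factor, was higher by 7.84 (adjusted p = 3.30e-16), but it already stood at 12.31 in Ikaros cells and 7.38 in control cells at 0 h. Foxo1, an activator of the Rag genes, was higher by 2.13 (adjusted p = 5.60e-17), and Tcf3, the E protein gene, by 0.25 (adjusted p = 0.0022). The repressor Gfi1b was -1.71 (adjusted p = 3.58e-11). Bcl11a, a factor of the same list whose role at the Rag genes was not examined here, was -2.04 (adjusted p = 1.40e-13). Among antigen receptor constant genes 1 of 6 was measured: Ighm, the mu heavy chain, rose from a mean of 17.68 at 0 h to 19.31 at 24 h in Ikaros cells, beside 17.74 and 17.65 in control cells, and the 24 h difference was 1.66 (3.16-fold, adjusted p = 9.20e-09).

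**Figure D4:**
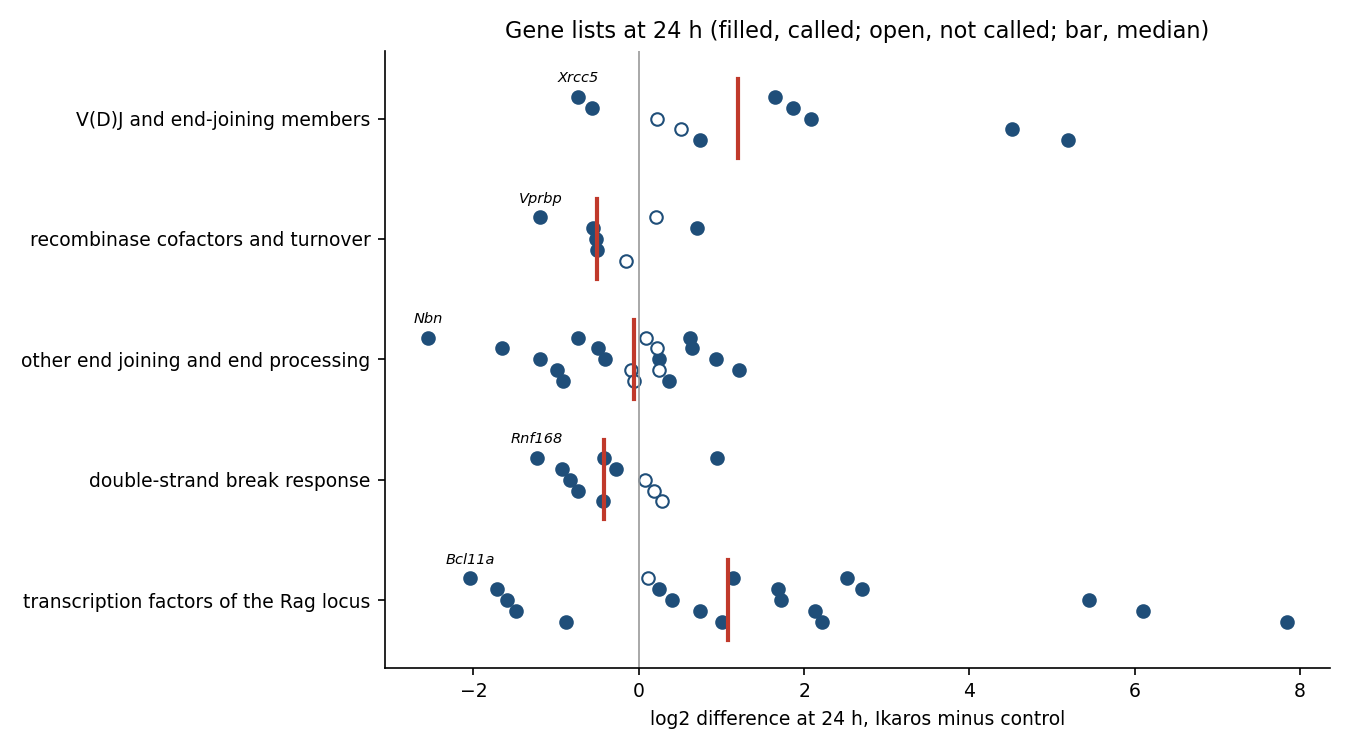
Log2 difference at 24 h, Ikaros minus control, for the 10 genes and for 4 lists of related genes (rows); each dot is a gene, filled when called by limma, red bars are list medians, and the lowest gene of each row is named. The 10 genes have a median of 1.20, the break-response list lies mostly below 0 with a median of -0.42, and the transcription factors spread from -2.04 to 7.84.

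Markers of the labelled cell type were present: 9 of 9 pre-B markers were measured, and their mean lay between 14.49 and 15.58 in all libraries, with the B cell factor gene Pax5 at 15.7 to 17.42. Members moved both ways within that mean. From 0 to 24 h the Ikaros group mean of Vpreb1 went from 15.69 to 12.71 and that of Igll1 from 16.4 to 12.6, both genes of the surrogate light chain. Cd79b, of the B cell receptor, went from 15.48 to 17.82 and Blnk from 11.54 to 15.29. In control cells these 4 genes moved by less, with 24 h means of 16.13, 16.56, 15.53 and 11.15. Of the T cell markers 0 of 6 were among the genes measured. Of the myeloid markers 2 of 6 were, at a mean of 4.83 to 6.79 in control and 6.14 to 7.91 in Ikaros libraries, and of the erythroid markers 2 of 6, at 5.93 to 7.90. The median gene mean was 11.72. The myeloid markers measured went opposite ways: in Ikaros cells Itgam went from 4.08 at 0 h to 9.35 at 24 h, beside 5.11 in control cells at 24 h, and Lyz2 from 9.37 to 4.68, beside 7.61. The part of these marker values in the differences above was not tested. In bulk libraries a change in the number of expressing cells and a change of RNA per cell cannot be told apart.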

How the data were processed

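Messenger RNA was measured by stranded, paired-end sequencing of 36 libraries, 3 in each of 12 groups named by the labels. The authors aligned fragments to mm10 with TopHat2, kept unique best hits, assigned them to genes with HTSeq, corrected for GC content and gene length with cqn and for library preparation with ComBat. The deposited values are log2 expression per gene. The table does not state the base, and fold changes rest on base 2. The deposited values carry no read depth and the depth recorded by the study was not used here, so precision rests on 3 libraries per group. ComBat removes variation that a later fit cannot see, so standard errors may be too small.

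All 12762 genes were fitted with limma 3.58.1 (R 4.3.3) as 12 group means with 24 residual degrees of freedom. P-values are two-sided and Benjamini-Hochberg adjusted over all genes. Standard errors are those of the fit, moderated across genes. On data simulated for the 24 h comparison over 12762 genes, limma called 54 of 66 genes changed by 2, 40 of 67 by 1 and 20 of 67 by 0.5 on the log2 scale. The simulation changed no other genes and used independent normal noise without batches, whereas 8024 genes were called in the data at 24 h. The adjusted threshold is stricter when few genes change, so these numbers do not carry over to the data.

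The labels give same-numbered samples a shared culture batch. Their deviations from the group means correlated by a median of 0.127 over 18 pairs, from -0.062 to 0.507, and 12 exceeded 0.1. Alternatives were the batch block, a filter at the 25th percentile of mean value, quantile normalization, trended and robust moderation, a fit of the compared groups alone and leaving out each replicate. Removal of GC and length trends, and leaving out the batch 4 Ikaros library at 12 h, were added after the data were seen.

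The genes and lists were chosen with earlier results of these data known. Named were the 10 genes, per list the 2 largest called rises and falls at 24 h with Foxo1, Tcf3 and Gfi1b, the nearest protein-coding genes on each side, and the 3 genes of most similar pattern among those with a mean at or above the median. A gene that the list rule named is not reported here. Desi1, Suv39h2, Tmem167, B230118H07Rik, Poll, Polm, Polq, Parp1, Lig3, Atm, Ccna2, Cdk2, Skp2, Ddb1 and the markers were named after their values were seen. Positions come from GENCODE mouse release 21 on GRCm38.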

Additional observations from a re-analysis of the deposited data

Results flagged for a closer look

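For 7 of the 10 genes the difference between Ikaros and control cells itself changed over time, by a moderated F test in limma that took the 5 departures from the 0 h difference together, adjusted over all genes. Of all genes 59.8% were called by it. Without replicate 1 or without replicate 2 the calls of Prkdc and Xrcc5 were lost, and the number over all genes went from 7626 to 4821 and 4064. The adjusted p was 7.34e-13 for Rag1, 9.19e-12 for Rag2, 3.91e-12 for Lig4, 1.10e-09 for Xrcc6, 1.65e-04 for Dclre1c, 0.00507 for Prkdc and 0.00906 for Xrcc5. At 24 h the change from 0 h was 4.80 for Rag1, 2.58 for Rag2, 4.54 for Lig4, 2.04 for Xrcc6, 1.77 for Dclre1c, -0.57 for Prkdc and -0.72 for Xrcc5 on the log2 scale. Groups of 3 libraries were not tested for single libraries standing apart.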

How the results depend on the processing

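Of 90 called results of the 10 genes, 896 alternative values were computed: 813 kept direction and call, 83 kept direction and lost the call, and 0 reversed. The filter, trended moderation and the compared groups alone keep the group means, so direction could not reverse there. The block does the same for differences within a time, and leaving out the 12 h library for comparisons without that group. The number of the 10 genes called moved as follows. Ikaros against control at 0 h (1) gave 2 with the replicate block and 2 with the compared groups alone, which added Rag2. Quantile normalization kept the count but exchanged Dntt for Rag2. The count was 0 under the filter, which removes Dntt, 0 with trended moderation, and 0 to 1 without a replicate. At 2 h (3) the range without a replicate was 1 to 3. The change from 0 h to 2 h (1) gave 2 with the block and 2 under the filter, and 0 to 1 without a replicate. The change to 6 h (3) ranged from 1 to 3 and that to 18 h (7) from 4 to 8. Ikaros cells against their own 0 h gave 1 at 2 h (3) and 3 at 12 h (5) with the compared groups alone, and without a replicate or library 1 to 4 at 2 h and 2 to 5 at 6 h (5). Control cells gave 1 at 6 h (0) with the GC and length trend removed. They gave 0 at 12, 18 and 24 h (1, 2 and 1) with the compared groups alone, where 0 of all genes were called. Leaving out a replicate or the batch 4 Ikaros library at 12 h they gave 0 to 1 at 12 and 24 h and 0 to 2 at 18 h. The step from 12 to 18 h (4) ranged from 2 to 4, and that from 18 to 24 h (0) gave 1 with the block, the filter, quantile normalization or the trend removed. The cause of these moves was not tested, beyond the removal of Dntt by the filter. The block changed no other call than those given with their results.

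Some values that were near 0 and uncalled as reported turned sign. Over the fits that left out a replicate or the batch 4 Ikaros library at 12 h, Rag1 at 2 h ranged from -0.39 to 0.07, Xrcc6 at 2 h from -0.06 to 0.12, Dclre1c at 6 h from -0.14 to 0.05 and Lig4 at 0 h from -0.09 to 0.07. Xrcc5 at 0 h ranged from -0.14 to 0.05, and Prkdc from -0.02 to 0.02 at 0 h and from -0.01 to 0.04 at 2 h. Xrcc4 ranged from -0.33 to 0.37 at 12 h, from -0.06 to 0.22 at 18 h and from -0.22 to 0.39 in Ikaros cells from 0 to 12 h. Nhej1 at 12 h ranged from -0.24 to 0.43 and Dntt at 24 h from -0.07 to 0.36. Removal of the GC and length trend gave 0.05 for Xrcc5 and -0.07 for Prkdc at 0 h, and quantile normalization -0.0 for Prkdc at 0 h. Leaving out replicate 2 lowered the number of all genes called by more than 1.5 times in 22 of 26 comparisons, leaving out replicate 1 in 17 and leaving out replicate 3 in 5. At 0 h the number over all genes was 1063, and 432, 318 and 1204 without replicates 1, 2 and 3.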

Other observations

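Patterns were compared among the 6367 genes that had a symbol and a mean at or above the median gene mean. The genes whose 12 group means ran most alike with those of Rag1, by Pearson's r over the 12 groups, were Nprl2 (0.99), Mbnl2 (0.98) and Ctdsp2 (0.98). For Rag2 they were Colgalt1, Dazap2 and Mylip (0.97 each), so none was named for both recombinase genes. For Lig4 they were Btrc, Trim11 and Mgst2 (0.99 each), and for Xrcc6 Gipc1 (0.99), Acbd3 and Dgkd (0.98 each). Xrcc5 ran most like Igll1 (0.98), the gene of the surrogate light chain component lambda5, followed by Ahctf1 and C1qtnf6 (0.97 each). Dclre1c ran most like Pik3c3 (0.98), Prkdc like Nans (0.95), Nhej1 like Ppp2r3c (0.97), Xrcc4 like Cspp1 (0.90) and Dntt like Cul4a (0.86). The groups share batches and a common course in time, and with Spearman's rho 0 of the 3 nearest genes were the same for 7 of the 10 members of the pathway, so these names depend on the measure.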
